A study of Rattus norvegicus with 12 samples.

Results

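The lysyl oxidases of the rat, Lox, Loxl1, Loxl2, Loxl3 and Loxl4, were followed in the urinary bladder after loss of its nerves. All 5 genes were measured, each by the 1 probe set that carries its symbol alone, among 18166 genes in all. The groups were 6 bladders taken 10 days after surgery with freezing of the ganglia on both sides (denervated, called pelvicus freezing in the source names) and 6 bladders after surgery alone (sham), all from female Sprague Dawley rats aged about 3 months. Each sample was read on 1 array, and values are log2 expression values from RMA, a procedure that corrects background, equalises the arrays and summarises the probes of a probe set. Array medians lay between 5.82 and 5.90. The labels do not state that samples came from separate rats, and p-values measure the spread between samples, which may be technical. The cell type given in the labels is nearly pure smooth muscle. The smooth muscle myosin gene Myh11 was bright (mean 12.63 in denervated and 13.14 in sham bladders), but so was the urothelial gene Upk1a (12.10 in denervated and 12.72 in sham bladders).

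Lysyl oxidases are copper-dependent enzymes that oxidise lysine side chains in collagen and elastin, and the aldehydes they make condense into the covalent cross-links that give the matrix its strength and recoil. Lox is secreted as an inactive proenzyme that bone morphogenetic protein 1 cuts outside the cell, Loxl1 serves the upkeep of elastic fibres, and Loxl2, Loxl3 and Loxl4 carry scavenger receptor domains in front of the shared catalytic domain. In mice, loss of Lox is lethal around birth, with aneurysms, and loss of Loxl1 leads to prolapse of pelvic organs.

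The promoters of Loxl1, Loxl3 and Loxl4 are shown to set a member that rose after denervation beside both that did not pass the test. Promoter sequences from RefSeq (build GRCr8) matched 3 of the 5 members. Each runs 5′ to 3′ from 250 bases before the gene's start to 50 bases after it. Capitals mark matches, on either strand, to any of 5 short motifs chosen with these sequences in view. The motifs were ACGTG (the core bound by hypoxia-inducible factors), CAGACA (Smad proteins), CATTCC (TEAD factors), TGANTCA (AP-1 factors) and TATAAA (a core promoter element).
Loxl1 (GRCr8 chr8:67612175-67612474, minus strand): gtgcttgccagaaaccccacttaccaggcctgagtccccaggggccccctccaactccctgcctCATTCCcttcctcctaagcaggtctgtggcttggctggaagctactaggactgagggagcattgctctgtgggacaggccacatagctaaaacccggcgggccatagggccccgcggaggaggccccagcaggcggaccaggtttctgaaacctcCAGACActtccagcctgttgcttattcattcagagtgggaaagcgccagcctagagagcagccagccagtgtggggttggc
Loxl3 (GRCr8 chr4:117098108-117098407, plus strand): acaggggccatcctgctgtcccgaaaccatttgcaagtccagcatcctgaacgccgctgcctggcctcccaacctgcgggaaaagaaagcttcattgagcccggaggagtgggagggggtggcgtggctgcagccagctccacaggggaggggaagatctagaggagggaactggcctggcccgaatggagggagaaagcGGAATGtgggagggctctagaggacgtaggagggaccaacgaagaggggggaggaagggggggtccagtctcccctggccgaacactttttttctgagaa
Loxl4 (GRCr8 chr1:251365528-251365827, minus strand): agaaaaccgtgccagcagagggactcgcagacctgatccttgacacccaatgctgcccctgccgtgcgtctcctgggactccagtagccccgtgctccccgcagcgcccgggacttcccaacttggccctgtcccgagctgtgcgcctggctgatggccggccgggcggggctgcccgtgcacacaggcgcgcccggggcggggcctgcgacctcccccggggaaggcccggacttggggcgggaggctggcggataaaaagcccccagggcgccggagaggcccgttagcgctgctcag
The Loxl1 window held CAGACA and CATTCC, the Loxl3 window held CATTCC on the opposite strand, written GGAATG, and the Loxl4 window held 0 matches. No match overlapped another. Among 33469 promoters of 300 bases, ACGTG was found in 19.3%, CAGACA in 21.1%, CATTCC in 14.2%, TGANTCA in 7.33% and TATAAA in 14.2%. These matches are letters in a window and were not tested as binding sites. GC content was 61.0% for Loxl1, 61.3% for Loxl3 and 72.0% for Loxl4.

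Of the 5 genes, 3 rose after denervation, Lox 4.09-fold, Loxl1 3.75-fold and Loxl2 3.17-fold. Loxl3 (1.17-fold) and Loxl4 (1.11-fold) did not pass the test. The test was limma's moderated test of denervated minus sham, and a gene was called at an adjusted p of 0.05 or less (Benjamini-Hochberg, over all 18166 genes). The count of 3 members higher and 0 lower stands against 11.9% of all genes higher and 16.9% lower (28.7% in either direction). Without denervated replicate 2, an array that stood apart, the members' counts were again 3 and 0, against 14.4% of all genes higher and 20.2% lower. The median change was 1.66 over the 5 members and -0.04 over all genes. In order of change from the largest rise, Lox stood at rank 88, Loxl1 at 107, Loxl2 at 170, Loxl3 at 2820 and Loxl4 at 3795 of the 18166 genes.

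Lox, the founding member of the family, stood at 11.65, 9.93, 11.98, 11.71, 12.01 and 11.25 in denervated replicates 1 to 6, and at 9.44, 9.21, 9.73, 9.43, 9.10 and 9.40 in sham replicates 1 to 6. Every denervated value was above the sham range, but replicate 2 lay only 0.54 above the sham mean, where the other 5 averaged 2.33 above it. The mean was 11.42 ± 0.78 in denervated and 9.39 ± 0.22 in sham bladders (SD, n = 6 each). Lox rose by 2.03 ± 0.29 log2 units (SE, limma adjusted p = 0.000369), with a 95% interval of 2.65-fold to 6.32-fold. Without denervated replicate 2 the rise was 2.33 ± 0.14, or 5.03-fold.

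Loxl1, the elastic fibre enzyme, stood at 10.69, 9.38, 11.01, 10.86, 11.07 and 10.55 in denervated replicates 1 to 6, and at 8.40, 8.55, 8.93, 8.73, 8.80 and 8.69 in sham replicates 1 to 6. Again the groups did not overlap, and denervated replicate 2 was the lowest of its group. The mean was 10.59 ± 0.63 in denervated and 8.68 ± 0.19 in sham bladders (SD, n = 6 each). Loxl1 rose by 1.91 ± 0.24 (SE, limma adjusted p = 0.000169), with a 95% interval of 2.64-fold to 5.34-fold. Lox and Loxl1 were thus 2 of 5 members with all denervated values above the sham range, which held for 5.76% of all genes. The reverse, all denervated values below the sham range, held for 0 members and 7.59% of all genes.

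Loxl2, which also acts on collagen IV of basement membranes, stood at 10.44, 8.58, 10.74, 10.49, 10.78 and 9.82 in denervated replicates 1 to 6, and at 8.12, 8.04, 8.97, 8.72, 8.41 and 8.61 in sham replicates 1 to 6. Denervated replicate 2 lay inside the sham range, 0.10 above its mean, and the other 5 were above that range. The mean was 10.14 ± 0.84 in denervated and 8.48 ± 0.36 in sham bladders (SD, n = 6 each). Loxl2 rose by 1.66 ± 0.33 (SE, n = 6 per group, limma adjusted p = 0.00226), with a 95% interval of 1.94-fold to 5.16-fold. An exact rank-sum test over all genes, which uses only the order of the values, did not call it (adjusted p = 0.0576).

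Loxl3, which mice need for a normal palate and spine, stood at 7.91, 7.25, 8.01, 7.71, 8.06 and 7.41 in denervated replicates 1 to 6, and at 7.52, 7.18, 7.68, 7.62, 7.53 and 7.51 in sham replicates 1 to 6. The groups overlapped, with 4 of 6 denervated values above the sham range. The mean was 7.73 ± 0.33 in denervated and 7.51 ± 0.17 in sham bladders (SD, n = 6 each). The difference was 0.22 ± 0.14 (SE, n = 6 per group, limma adjusted p = 0.270), and its 95% interval ran from 0.946-fold to 1.44-fold. Without denervated replicate 2 it was 0.32 ± 0.12 (limma adjusted p = 0.0629).

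Loxl4 stood at 8.26, 7.58, 8.77, 8.25, 8.18 and 7.61 in denervated replicates 1 to 6, and at 8.01, 7.83, 8.07, 8.13, 7.89 and 7.82 in sham replicates 1 to 6. Denervated replicates 2 and 6 lay below the sham range and the other 4 above it. The mean was 8.11 ± 0.45 in denervated and 7.96 ± 0.13 in sham bladders (SD, n = 6 each). The difference was 0.15 ± 0.17 (SE, n = 6 per group, limma adjusted p = 0.571), with a 95% interval of 0.858-fold to 1.43-fold. In sham bladders all 5 members were brighter than the median gene, whose mean over the 12 arrays was 6.84.

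**Figure D1:**
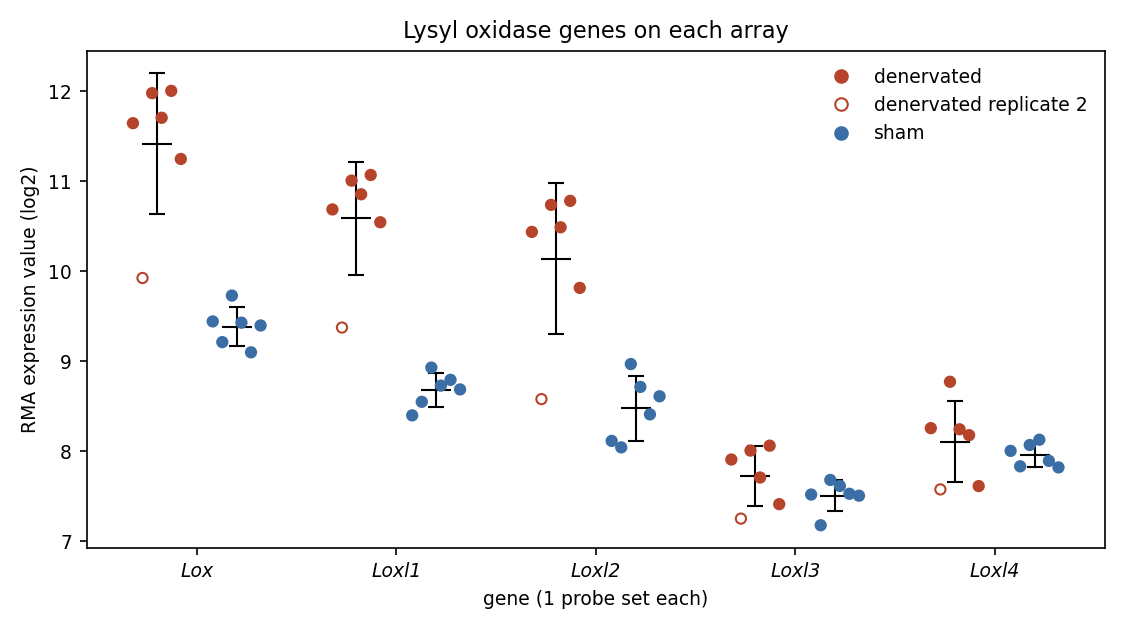
RMA expression values (log2) of the 5 lysyl oxidase genes on each of 6 denervated (left) and 6 sham (right) arrays. Points are arrays, the open circle is denervated replicate 2, and the mean and SD of each group are marked. For Lox and Loxl1 all denervated points lie above the sham points, for Loxl2 5 of 6 do, and for Loxl3 and Loxl4 4 of 6 do.

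Whether members changed by unequal amounts was tested on the difference between a pair of them within each array, for all 10 pairs. The test was an exact two-sided permutation test over all assignments of the 12 arrays to groups of 6, adjusted over the 10 pairs. In 7 pairs the changes differed. Lox rose more than Loxl3 by 1.81, with within-array differences of 2.67 to 4.00 in denervated and 1.57 to 2.05 in sham bladders. It rose more than Loxl4 by 1.88, with differences of 2.35 to 3.82 in denervated and 1.21 to 1.66 in sham bladders. Loxl1 exceeded Loxl3 by 1.69 and Loxl4 by 1.76, and Loxl2 exceeded them by 1.44 and 1.51. In these 6 pairs the groups did not overlap, and each had p = 0.00216, the smallest this exact test can give, and an adjusted p of 0.00361.

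Among the members that rose, the differences were small. Lox rose more than Loxl2 by 0.37 (exact permutation p = 0.0238, adjusted p = 0.0340), with overlapping within-array differences of 1.21 to 1.43 in denervated and 0.69 to 1.33 in sham bladders. That call was lost without denervated replicate 2 (0.36, exact permutation test, adjusted p = 0.0526) or 6 (0.34, adjusted p = 0.0557). Lox and Loxl1 differed by 0.12 (exact permutation test, adjusted p = 0.363), Loxl1 and Loxl2 by 0.25 (adjusted p = 0.130) and Loxl3 and Loxl4 by 0.07 (adjusted p = 0.528), none of which passed the test.

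**Figure D2:**
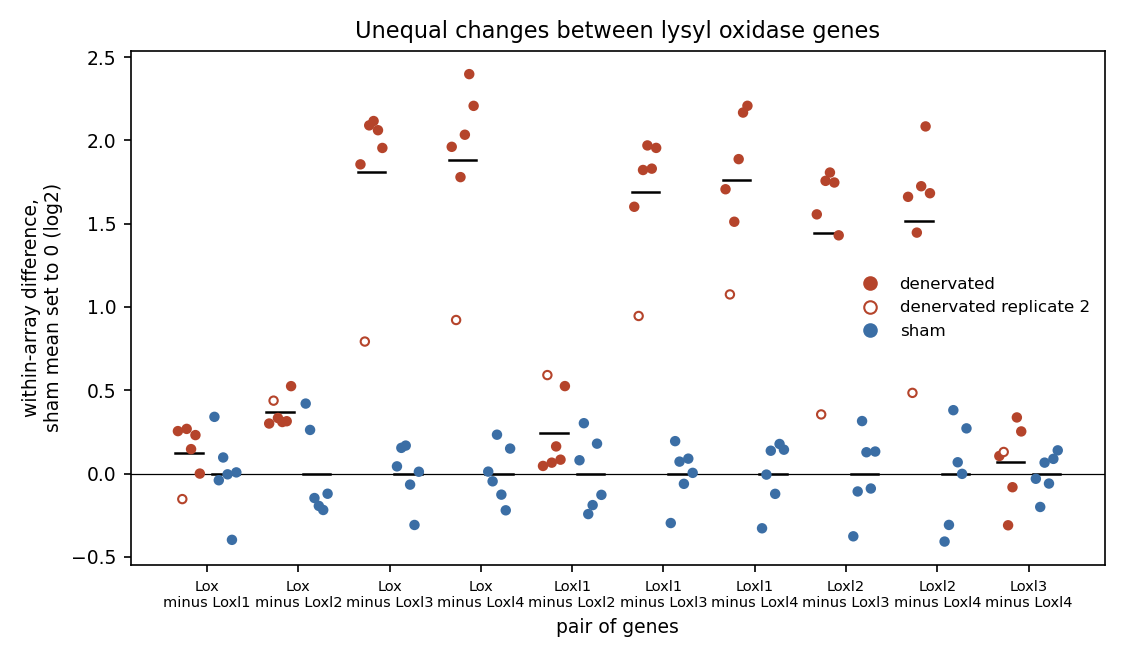
Within-array differences of log2 values for the 10 pairs of lysyl oxidase genes on the 6 denervated (left) and 6 sham (right) arrays, with the sham mean of each pair set to 0. Points are arrays, the open circle is denervated replicate 2 and short lines are group means. In the 6 pairs that set Lox, Loxl1 or Loxl2 against Loxl3 or Loxl4, all denervated points lie above the sham points.

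The denervated bladders differed among themselves, and their order was shared in part between members. Replicate 2 was the lowest and replicate 6 the second lowest of the group for 5 of 5 members, which held for 25.6% of the 2153 genes called higher and 6.90% of all genes. For Lox, Loxl1 and Loxl2 the order of the 6 denervated bladders was identical, from replicate 2 through 6, 1, 4 and 3 to 5. Besides Lox, 89 genes had that order (0.490% of all), Loxl1 and Loxl2 included, and 49 of these were among the genes called higher (2.28% of those genes). Loxl3 differed from it by an exchange of replicates 1 and 4. Loxl4 had another order, from replicate 2 through 6, 5, 4 and 1 to 3, so that replicate 5, the highest for the other 4 members, was below 3 of the other denervated values. Among sham bladders replicate 3 was the highest for 4 of 5 members, Loxl4 being the exception.

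Denervated replicate 2 also stood between the groups over all genes, with a score of -5.84 on a first principal component (58.0% of the variance) where the other denervated arrays scored 25.9 to 42.5 and sham arrays -30.2 to -22.5. Not all of its values were near sham. Its mean over 8 macrophage markers lay 0.98 above that of sham bladders, and in the other 5 denervated bladders that difference was 0.97 to 1.66. Its mean over 6 Schwann cell markers lay at -0.50 relative to sham, against -1.46 to -1.18 in the other 5.

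**Figure D3:**
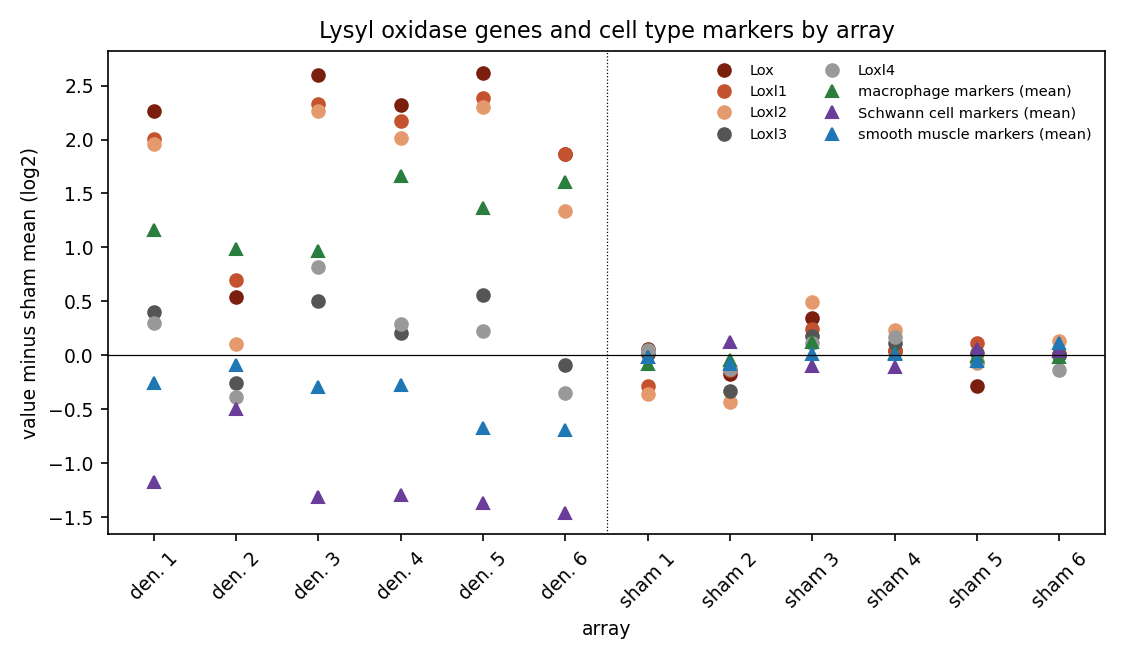
Log2 values minus the sham mean on each of the 6 denervated (left) and 6 sham (right) arrays, for the 5 lysyl oxidase genes (circles) and the means of macrophage, Schwann cell and smooth muscle markers (triangles). On denervated replicate 2, Lox, Loxl1 and Loxl2 stand at 0.54, 0.69 and 0.10, and the macrophage markers at 0.98.

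Markers of several cell types moved with the groups, and their part in the changes of the lysyl oxidases was not tested. Over all genes 11.9% were called higher and 16.9% lower. Of 8 macrophage markers 7 were higher and 0 lower (list means of 9.66 to 10.35 in denervated and 8.61 to 8.82 in sham bladders). Of 9 fibroblast markers 4 were higher and 0 lower (10.02 to 11.05 in denervated and 9.89 to 10.32 in sham bladders), and of 6 endothelial markers 2 were higher and 0 lower (8.47 to 8.68 in denervated and 8.24 to 8.35 in sham bladders). Of 8 smooth muscle markers 1 was higher and 5 lower (11.19 to 11.79 in denervated and 11.80 to 11.99 in sham bladders). All 7 tested urothelial markers were lower (10.26 to 10.65 in denervated and 11.16 to 11.47 in sham bladders), as were 5 of 6 Schwann cell markers (6.59 to 7.54 in denervated and 7.94 to 8.16 in sham bladders). The dimmest marker was Lep of adipocytes, with a mean of 4.94, below the array medians (5.82 to 5.90), so its signal over background is unknown. In these samples, fewer cells of a type and less RNA per cell cannot be told apart.

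Most tested genes that activate Lox, place it on the matrix or take part in procollagen processing rose. Of 8 such genes 5 rose and 0 fell, where 11.9% of all genes rose and 16.9% fell, with a median change of 0.72 against -0.04 over all genes. Bmp1, the protease that cuts the proenzyme, ran from 8.75 to 9.59 in denervated and 8.27 to 8.63 in sham bladders and rose by 0.78 ± 0.14 (SE, limma adjusted p = 0.00136). Pcolce, an enhancer of that protease on procollagen, rose by 1.10 ± 0.27, fibronectin (Fn1) by 1.60 ± 0.19 and periostin (Postn) by 1.14 ± 0.16. The fifth was Adamts14, a procollagen protease (0.65 ± 0.12). The Bmp1 relatives Tll1 (0.27 ± 0.10, limma adjusted p = 0.0625) and Tll2 (0.05 ± 0.11, adjusted p = 0.779) and the procollagen protease Adamts2 (0.39 ± 0.16, adjusted p = 0.0807) did not pass the test. Pcolce2 and Thbs1 were not tested here. On denervated replicate 2 the list mean lay 0.28 above the sham mean, against 0.42 to 1.04 on the other 5.

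Of 17 genes of copper supply 3 rose and 2 fell, close to the 28.7% called in either direction among all genes, with a median change of -0.07. Atp7a, the pump that loads copper onto secreted enzymes, stood at 7.66 ± 0.08 in denervated and 7.66 ± 0.06 in sham bladders (SD, n = 6 each), a difference of 0.00 ± 0.06 (SE). Slc31a1, the copper importer of the plasma membrane, rose by 0.37 ± 0.08 (limma adjusted p = 0.00552). The copper oxidase Cp (0.86) and the metalloreductase Steap3 (0.77) rose, and the metalloreductase Steap2 (-0.68) and the mitochondrial copper chaperone Cox17 (-0.22) fell. Cox17 was not called without denervated replicate 1, 3 or 5 or sham replicate 1, 2, 4 or 5 (limma adjusted p of 0.0538 to 0.0706), and the count of genes lower was 1 without denervated replicate 1 or 5 or sham replicate 1, 4 or 5.

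Most genes of fibrillar collagen, the main substrate, rose. Of 11 fibrillar collagen genes 9 rose and 0 fell, where 11.9% of all genes rose and 16.9% fell, with a median change of 0.58. The count of genes higher was 7 in the exact rank-sum test and 7 to 9 with single arrays left out. For 3 of the 11 all denervated values were above the sham range, which held for 5.76% of all genes. Those of the main fibril collagens rose, Col1a1 by 0.60 ± 0.13, Col1a2 by 0.58 ± 0.13 and Col3a1 by 0.49 ± 0.10 (SE, limma adjusted p = 0.00447, 0.00556 and 0.00254). Their sham means were already high (12.49, 12.33 and 12.63), and whether the array understates changes at such levels was not tested. Col11a1 (6.15-fold), Col5a2 (2.41-fold) and Col5a1 (2.16-fold), which encode minor components of fibrils, also rose. Col11a1 ran from 6.46 to 9.86 in denervated and 5.67 to 6.11 in sham bladders, where it was close to the array medians, so its signal over background in sham is unknown and its fold is uncertain. Col5a3 rose 1.59-fold, a call lost without denervated replicate 1, 3, 4 or 5 or sham replicate 1, 2, 4 or 5 (limma adjusted p of 0.0548 to 0.0750). Col27a1 rose 1.18-fold, a call lost without denervated replicate 3 or 5 or sham replicate 1, 2, 3, 4 or 5 (limma adjusted p of 0.0522 to 0.0689).

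Of 5 type IV collagen genes, which encode basement membrane chains, 2 rose and 1 fell, against 11.9% and 16.9% of all genes. Col4a1 ran from 9.28 to 10.45 in denervated and 8.50 to 8.90 in sham bladders and rose by 1.43 ± 0.19 (SE, limma adjusted p = 0.000224). Col4a2, its partner in the trimer, rose by 1.27 ± 0.18 (adjusted p = 0.000322). For both, no denervated value overlapped the sham range. Col4a5 fell by 0.37, a call lost without denervated replicate 3, 4, 5 or 6 or sham replicate 1, 3, 4 or 6 (limma adjusted p of 0.0684 to 0.102), which left 0 lower.

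Of 15 genes for elastic fibres and their adaptors 10 rose and 2 fell, against 11.9% and 16.9% of all genes. The median change of the list was 0.71. Eln, which encodes the elastin precursor that Lox and Loxl1 cross-link, had a median of 11.43 (8.92 to 11.61) in denervated and 8.50 (7.94 to 8.80) in sham bladders. Its lowest denervated value, again replicate 2, was just above the sham range. Eln rose by 2.51 ± 0.39, or 5.70-fold (SE, limma adjusted p = 0.000556). Efemp2, fibulin-4, which tethers Lox to elastin, rose by 0.71 ± 0.14 (adjusted p = 0.00278). The latent TGF-beta binding protein Ltbp2 (2.76), which was dim in sham bladders (mean 5.14), and the matrix proteins Fbln2 (1.99), Mfap4 (1.53) and Fbn1 (1.18) rose, and Efemp1 (-0.75) and Ltbp4 (-0.46) fell. Fbln5, which binds Loxl1, and Fbn2 were not tested here. On denervated replicate 2 the list mean lay 0.24 above the sham mean, against 0.51 to 1.09 on the other 5. An exact rank-sum test called 6 of the list higher.

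Most tested genes that prepare collagen for cross-linking rose. Of 18 genes for lysine hydroxylation, glycosylation and collagen folding 12 rose and 2 fell, against 11.9% and 16.9% of all genes. The median change of the list was 0.63. Plod2, which hydroxylates the telopeptide lysines that lysyl oxidases act on, ran from 9.85 to 11.83 in denervated and 9.21 to 9.84 in sham bladders and rose by 1.52 ± 0.28 (SE, limma adjusted p = 0.00169). Plod1, which acts on the helix, rose by 0.63 ± 0.11 (adjusted p = 0.00121), and Plod3 was not tested here. The prolyl hydroxylase subunit P4ha3 rose by 2.48 ± 0.41. The prolyl hydroxylase P3h2 fell by 1.11 and the channel gene Tmem38b by 1.08. On denervated replicate 2 the list mean lay 0.08 above the sham mean, against 0.22 to 0.92 on the other 5.

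Other enzymes that cross-link proteins or oxidise amines moved both ways. Of 13 such genes 3 rose and 4 fell, against 11.9% and 16.9% of all genes, with a median change of 0.02. Pxdn, the peroxidase that cross-links collagen IV, rose by 1.19 ± 0.22, the diamine oxidase Aoc1, which also uses copper, by 1.22 ± 0.17, and the sulfhydryl oxidase Qsox1 by 0.45 ± 0.09. The monoamine oxidases Maob and Maoa fell by 1.16 and 0.76, the transglutaminase F13a1 by 0.47 and the transglutaminase Tgm4 by 0.32. Tgm4 was not called without denervated replicate 4 or sham replicate 1, 3, 4 or 5 (limma adjusted p of 0.0542 to 0.0734). Tgm2, the tissue transglutaminase, stood at 10.50 ± 0.14 in denervated and 10.48 ± 0.15 in sham bladders (SD, n = 6 each), with a limma adjusted p of 0.871. Aoc1 (mean 5.52 in denervated and 4.30 in sham bladders) and Tgm4 were dim.

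Of 10 small proteoglycans and related proteins of collagen fibrils 4 rose and 2 fell, against 11.9% and 16.9% of all genes. Fmod, which binds Lox and directs it to collagen, stood at 9.87 ± 0.72 in denervated and 9.00 ± 0.35 in sham bladders (SD, n = 6 each), a rise of 0.86 ± 0.29 (SE, limma adjusted p = 0.0376). That call was lost without denervated replicate 1, 3, 4 or 5 or sham replicate 1, 2, 4, 5 or 6 (limma adjusted p of 0.0545 to 0.0845). Aspn (1.38), Bgn (0.85) and Dpt (0.18) rose, and Omd (-0.93) and Kera (0.502-fold), which was dim in both groups, fell. Dpt was not called without denervated replicate 1, 3, 4 or 5 or sham replicate 2, 4, 5 or 6 (limma adjusted p of 0.0505 to 0.0644). The count of members higher was 2 without denervated replicate 1, 3, 4 or 5 or sham replicate 2, 4, 5 or 6. Dpt, Lum and Dcn are also among the fibroblast markers.

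Genes of pathways known to induce lysyl oxidases moved unevenly. Of 12 genes of TGF-beta signalling and its targets 6 rose and 2 fell, against 11.9% and 16.9% of all genes. The median change of the list was 0.21. The ligands Tgfb1 (1.13 ± 0.10) and Tgfb3 (1.72 ± 0.29) and the targets Ccn2 (2.29 ± 0.41) and Pmepa1 (0.82 ± 0.15) rose, and the receptor gene Tgfbr3 (-0.44) and the target Tgfbi (-0.33) fell. Tgfb1 ran from 9.57 to 10.27 in denervated and 8.76 to 8.99 in sham bladders.

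Of 15 genes around hypoxia-inducible factor 4 rose and 2 fell, where 11.9% of all genes rose and 16.9% fell, with a median change of -0.03. Hif1a itself stood at 11.02 ± 0.10 in denervated and 10.86 ± 0.08 in sham bladders (SD, n = 6 each), with a limma adjusted p of 0.0740. Car9 (0.93), Ldha (0.40), Pgk1 (0.26) and Slc2a1 (0.21) rose, and Egln3 (-0.98) and Vegfa (-0.30) fell. Slc2a1 was not called without any 1 array other than denervated replicate 2 or 3 (limma adjusted p of 0.0553 to 0.102). Vegfa was not called without denervated replicate 1, 3, 4 or 5 or sham replicate 1, 2, 4, 5 or 6 (limma adjusted p of 0.0527 to 0.0868), which left 1 gene lower.

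Of 6 mesenchymal transcription factors 1 rose and 1 fell, near the shares among all genes (11.9% higher and 16.9% lower). Snai1, which LOXL2 stabilises in human cell lines, rose by 0.46 ± 0.15 (SE, n = 6 per group, limma adjusted p = 0.0351), and Zeb1 fell by 0.34 (adjusted p = 0.0122). Snai1 was not called without denervated replicate 1, 3, 4 or 5 or sham replicate 1, 2, 4 or 6 (limma adjusted p of 0.0525 to 0.0766). The count of members higher was 0 without denervated replicate 3, 4 or 5 or sham replicate 1, 2, 4 or 6, and 2 without denervated replicate 2.

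**Figure D4:**
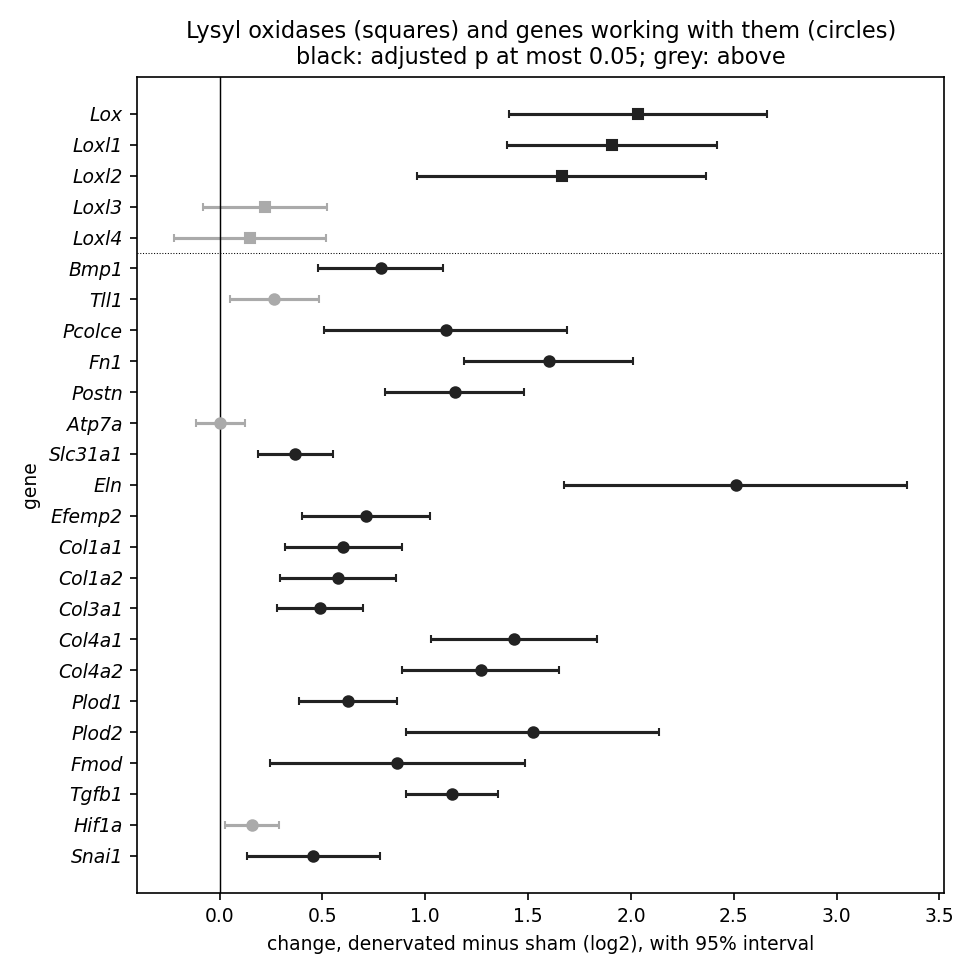
Change of the 5 lysyl oxidase genes (squares) and of 20 genes from the lists around them (circles). Values are denervated minus sham in log2 units with 95% intervals from limma (n = 6 per group). Black symbols passed the adjusted p of 0.05 and grey ones did not. Lox, Loxl1 and Loxl2 lie between 1.66 and 2.03, and Atp7a lies at 0.00.

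**Figure D5:**
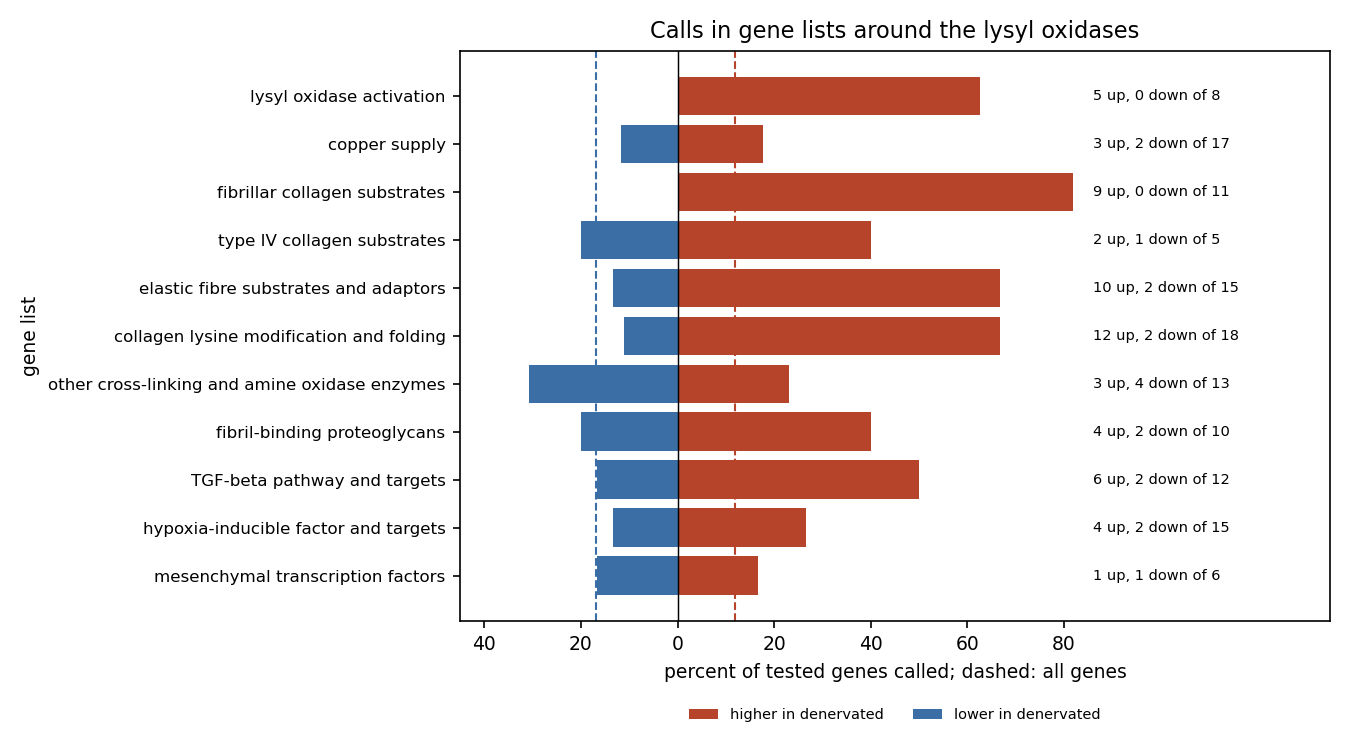
Percent of the tested genes of 11 lists that were called higher (right) or lower (left) in denervated bladders. Dashed lines are the shares over all 18166 genes, 11.9% higher and 16.9% lower. Fibrillar collagens have 9 of 11 genes higher, and copper supply 3 of 17.

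Genes whose values followed a member most closely within the groups were found by Pearson's r of group-centred log2 values over the 12 arrays, as a description with no test. All genes share the arrays and their normalization, and of the 15 genes named here all but Cdk5 had their farthest value on denervated replicate 2. For Lox they were Vim, the filament protein of mesenchymal cells (r = 0.986), Nrm (0.963) and Vnn1 (0.960). For Loxl1 they were Timp1, an inhibitor of matrix proteases (r = 0.979), Eln (0.977) and Tmem100 (0.975). Those of Loxl2 were Fn1 (r = 0.986), the centriole gene Stil (0.976) and the microfibril gene Fbn1 (0.969). Loxl3 was most like Scpep1 (r = 0.968), Aldh7a1 (0.961) and Chpf (0.959), and Loxl4 most like the kinase gene Cdk5 (r = 0.964), Fam180a (0.952) and Rab31 (0.948).

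Without denervated replicate 2, Fn1 was again the gene most like Loxl2 (r = 0.959 over 11 arrays) and Scpep1 that most like Loxl3 (0.948). After Fn1, the closest to Loxl2 were then Rnf24 (0.957) and Cdr2l (0.957). For Lox the closest were then Plod2 (0.940), Vim (0.932) and Aff4 (0.931, against -0.119 over 12 arrays). Of the 3 genes named above, 1 stayed among the closest 3 for Lox, 1 for Loxl2 and 2 for Loxl3. For Loxl1, 0 of the 3 genes stayed among its closest 3, and Eln had r = 0.862. Its closest were then Tomm6 (0.967), Ankrd29 (0.958, against 0.218 over 12 arrays) and Txndc5 (0.949). For Loxl4 the closest was then Klf7 (0.956), which had r = 0.298 over 12 arrays, and of its 3 genes 1, Cdk5, stayed among the closest 3 (0.949). Between members, Loxl2 had r = 0.952 with Lox and 0.965 with Loxl1 over 12 arrays, and 0.831 and 0.894 without denervated replicate 2. Lox and Loxl1 had r = 0.943 over 12 arrays and 0.679 without that array.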

How the data were processed

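Values were used as the authors deposited them, log2 expression values of 36685 probe sets on 12 arrays, made by RMA in Affymetrix Expression Console 1.4.1.46, per the submitters' processing notes. No source used here names the genome build or annotation of the array, or a scan date or batch. The small number of arrays limits precision. Groups and replicate numbers came from the titles. The platform's gene table gave 18511 probe sets with 1 gene, and the brightest per gene was kept (18166 genes). These were fitted with the default lmFit and eBayes of limma 3.58.1 (R 4.3.3). That step was tried on simulated independent values with the same spread in both groups. It was not tried on a wider denervated spread such as that of Lox. Pairs of members were compared by exact permutation in Python 3.11.15.

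Members, the 11 lists, cell markers and tests were chosen with earlier results of these data known. The text names the 5 members, up to 4 called genes of each list with the largest changes, and the 3 genes most like each member. It also names substrates, partners and pathway genes linked to the enzymes, whatever their values. Any further list member was picked once its values were known. The alternatives tried were a second quantile normalization, median centring, dropping genes dimmer than the median gene, trend and robust eBayes, array weights, averaged probe sets, the replicate number as a block, an exact rank-sum test and leaving out single arrays.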

Additional observations from a re-analysis of the deposited data

Results flagged for a closer look

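Single arrays far from the other 5 of their group were looked for in 134 sets of values (67 named genes in each group), by Dixon's 95% critical value for the gap over the range. There were 13, and chance alone marks about 1 in 20 independent sets. The count cannot be set against chance, because the named genes include those picked for following a member over these arrays, such as Vnn1, Tmem100 and Scpep1, which repeat the members' own values. Denervated replicate 2 accounts for 7 of the 13. It stood low for Lox (9.93, against 11.25 to 12.01 in the other 5), Loxl1 (9.38, against 10.55 to 11.07), Eln (8.92, against 10.79 to 11.61), Vnn1 (6.36, against 7.80 to 8.42) and Tmem100 (7.91, against 9.26 to 9.72). It stood high for Tmem38b (8.97, against 7.68 to 7.99) and Maob (7.80, against 6.39 to 6.80), both of which fell in the group. Denervated replicate 6 was high for Hif1a (11.20, against 10.93 to 11.02).

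Sham replicate 2 was low for Loxl3 (7.18, against 7.51 to 7.68 in the other 5) and Scpep1 (10.28, against 10.46 to 10.54) and high for Kera (6.21, against 4.24 to 4.96). Sham replicate 3 was high for Steap3 (8.42, against 7.96 to 8.09) and sham replicate 4 for Atp7a (7.78, against 7.61 to 7.67).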

How the results depend on the processing

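Lox and Loxl1 stayed called, and Loxl3 and Loxl4 not called, under all 8 settings and with each of the 12 arrays left out. Over these 20 alternatives the change ran from 1.92 to 2.33 for Lox, 1.81 to 2.15 for Loxl1, 1.53 to 1.97 for Loxl2, 0.15 to 0.32 for Loxl3 and 0.02 to 0.27 for Loxl4. The adjusted p of Loxl2 ran from 1.28e-05 to 0.0576, and its call was lost in the exact rank-sum test alone (change 1.66), which left 2 members called. That of Loxl3 ran from 0.0513 to 0.472. The rank-sum test also gave 6 elastic fibre genes and 2 proteoglycans higher, and 2 mesenchymal factors were higher with trend and robust eBayes and with array weights. Leaving out single arrays gave 2 to 6 proteoglycans and 0 to 2 mesenchymal factors higher, 6 to 7 pairs called, 3 members called and 4374 to 6273 genes called in all, against 4066 to 6528 under the other settings. The cause of these differences was not tested. No detection call was available, so signal over background of dim genes is unknown.

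Same-numbered arrays of the groups had correlations of deviations from -0.112 to 0.101, so the numbers were not taken as pairs. With the replicate block 4460 genes were called, against 5216 without it, and no member's call changed. The block left 1 copper gene, 0 type IV collagens and 1 hypoxia gene lower. Of the pair differences 0 of 10 were called with the replicate block and its exact sign-flip test over 6 differences. The 6 pairs of Lox, Loxl1 or Loxl2 with Loxl3 or Loxl4 reached the smallest p this exact test can give (0.03125, adjusted p = 0.0521), and Lox against Loxl2 had p = 0.0625 (adjusted p = 0.0893).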

Other observations

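Markers of fat and of the bladder's outer lining varied among the denervated bladders. The mean over 6 adipocyte markers ran from 6.93 to 8.22 in denervated and 7.65 to 8.13 in sham bladders, with the lowest value in denervated replicate 2. Of these 6 markers 2 were called lower and 0 higher, where 16.9% of all genes were lower and 11.9% higher. Pparg, a regulator of fat cells, fell by 0.60 ± 0.10 (SE, n = 6 per group, limma adjusted p = 0.000744). The call of Fabp4, a fatty acid carrier (-0.40 ± 0.14, limma adjusted p = 0.0455), was lost without denervated replicate 2 (-0.31, adjusted p = 0.0680), which left 1 marker lower. Adipoq (-0.24), Lep (-0.24), Plin1 (0.23) and Cidec (0.07) did not pass the test (limma adjusted p of 0.355 to 0.872). Whether the falls of Pparg and Fabp4 came from fat cells was not tested. Of 5 mesothelial markers 1 was higher and 2 were lower, against 11.9% and 16.9% of all genes. Wt1 rose by 0.87 ± 0.22, and Upk3b and Gpm6a fell by 0.83 and 1.85. Msln (0.40, limma adjusted p = 0.210) and Lrrn4 (-0.56, adjusted p = 0.315) did not pass the test. Upk3b is also among the urothelial markers, all of which were lower. The mesothelial list means were 7.18 to 8.45 in denervated and 7.87 to 8.23 in sham bladders.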
